A study of Mus musculus with 22 samples.

Results

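The Oct4 peaks described here are those called in the aorta both with Oct4 intact in smooth muscle cells (SMC) and with Oct4 deleted in them. A peak of the wild-type list was a member if it lay on chromosomes 1 to 19 and shared at least 1 bp with a peak of the knockout list. Bins of 1 Mb holding 20 or more summits in either list were left out. The members were thus chosen by the measured overlap of peaks in both lists, so their sharing and their enrichment values are given as description, with no test. There were 2278 members of the 2840 wild-type peaks in this range (80.2%, exact 95% binomial interval 78.7 to 81.7, for the error of counting in this pair of samples alone), and of 5455 wild-type peaks in all. They overlapped 2282 of 4828 knockout peaks in the same range, or 47.3%. Of 3705 shared wild-type peaks in all, 483 were left out because they lay in 19 dense bins and 944 because they lay off chromosomes 1 to 19. For comparison there remained 562 unshared peaks of the wild-type list and 2546 of the knockout list.

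The wild-type sample was labelled Oct4-WT/WT (SMC-Oct4+/+ mice) and the knockout Oct4-KO/KO (SMC-Oct4Δ/Δ mice). Each was 1 ChIP sample with an Oct4 antibody from snap-frozen aortic segments (root, arch and up to the carotid bifurcation) of 15 mice, so the spread between samples is not known. All mice were male apoE-/- C57BL/6 animals with the Myh11-CreERT2 transgene and an eYFP lineage reporter, received tamoxifen when they were between 6 and 8 weeks old and then a Western diet for 18 weeks. The Cre is driven by a smooth muscle promoter, so in the knockout Oct4 was deleted only in cells that expressed Myh11 at the time of tamoxifen. The segments are a mixture of cell types, in which the other cells still carry intact Oct4. The list named wild-type over knockout held the same 5455 entries as the wild-type list and was not used.

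Oct4, encoded by Pou5f1, is a POU transcription factor of pluripotent cells that binds the octamer ATGCAAAT, often next to a SOX element. Much of a mammalian genome is repeated sequence. Alu elements in primates and B1 elements in rodents are short interspersed elements that both derive from 7SL RNA, the RNA of the signal recognition particle. L1 elements are long interspersed elements, the major satellite lies around mouse centromeres, the hexamer TTAGGG makes up telomeres, and tandem GGAAT pentamers are known from human satellites II and III. Short reads from repeated sequence can fit many places of a genome, and a count at any of them depends on how the aligner treats such reads.

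The sequences at the summits come first. The windows below are 101 bp around a summit, from GRCm38, plus strand. They are among the strongest members of 4 classes, and capitals mark the run or word. The GGAAT run, the major satellite word and the other tandem run are shown because these classes are frequent among the strongest members, and the run of A because such runs are frequent at unshared peaks.
GGAAT pentamer run, chr6:132463715-132463815: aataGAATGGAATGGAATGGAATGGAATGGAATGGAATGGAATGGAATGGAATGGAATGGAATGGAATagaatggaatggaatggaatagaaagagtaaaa
major satellite word, intron of Cdk5rap2, chr4:70378137-70378237: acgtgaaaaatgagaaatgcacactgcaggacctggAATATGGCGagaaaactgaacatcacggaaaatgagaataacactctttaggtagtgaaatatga
other tandem run, chr13:74530507-74530607: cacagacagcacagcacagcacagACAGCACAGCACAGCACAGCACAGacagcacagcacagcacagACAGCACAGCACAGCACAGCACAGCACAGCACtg
run of A, intron of Polq, chr16:37046189-37046289: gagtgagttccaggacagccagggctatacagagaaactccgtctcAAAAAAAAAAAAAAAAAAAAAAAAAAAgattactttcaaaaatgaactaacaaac

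The fold enrichment, a ratio of summit pileup to expected pileup that MACS2 gives after adding 1 to both, was 56.2 in wild-type and 54.0 in knockout for the GGAAT member. The strongest member with a telomeric run, made of TTAGGG hexamers, had 49.4 and 48.6. The major satellite member had 55.5 and 52.7, the other tandem run 52.8 and 49.3, and the run of A 21.3 and 25.3. In each list a single expected pileup, 0.458 in wild-type and 0.462 in knockout, fitted the folds of all peaks. The fold is thus the pileup on a constant scale, not an enrichment over a local background.

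Among the repeat classes named below, that with a 7SL or Alu word held the most members, 488, while that with the B1 word held 150. The words searched were CCTGTAATC (the form in Alu), CCTGTAGTC (the form in 7SL RNA), GTAGCTGGG and TCAGCCTCC (found in both) and CCTTTAATC (B1), on both strands. The strongest member with the B1 word is shown, with capitals on the reverse complement of the word.
B1-form word, outside genes, chr15:75085511-75085611: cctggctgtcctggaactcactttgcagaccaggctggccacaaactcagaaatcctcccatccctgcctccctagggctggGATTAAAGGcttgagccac

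The B1 member had a fold of 30.9 in wild-type and 33.5 in knockout. Of the 3 strongest members with a 7SL or Alu word, that in the non-coding gene Gm26461 had 45.3 and 45.8, that in the 7SL RNA gene Rn7s1 had 40.5 and 42.4, and that in an intron of Acacb, which encodes an acetyl-CoA carboxylase, had 39.1 and 43.1. CCTGTAGTC and the reverse complement of GTAGCTGGG can overlap, so 1 stretch may hold both.

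A member with the octamer is shown because these are the letters that Oct4 binds, and capitals mark the octamer.
outside genes, with 31-mers of the mitochondrial genome, chr5:60042915-60043015: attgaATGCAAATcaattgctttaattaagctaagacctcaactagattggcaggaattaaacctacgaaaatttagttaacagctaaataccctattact

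This member had a fold of 13.7 in wild-type and 15.7 in knockout. Of the members with the octamer followed by CAAA, that in an intron of Kcnq1 had 28.8 and 36.3 and that in an intron of Ncoa1 had 28.1 and 34.2.

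Some members fell in no repeat class and had unique 31-mers, meaning a median of 1 copy in the assembly over the 31-mers of the 201 bp window. Part of such a window can still be repeated, and the telomeric run in Greb1 also had a median of 1. Of the unique members of no class, the strongest at most 70 bp wide were in introns of Plxdc1, Pdia5 and Lrrk1. The strongest within 1 kb of a protein-coding transcript start were upstream of Ldhb and in an intron of Snx1. The folds were 29.5 and 30.1 in Plxdc1, 24.0 and 27.4 in Pdia5, 23.3 and 23.9 in Lrrk1, 10.97 and 11.63 at Ldhb, a lactate dehydrogenase subunit, and 10.97 and 15.05 in Snx1, a sorting nexin, wild-type first. The classes used here rest on exact words and runs chosen after the sequences were seen, so diverged copies of a repeat fall outside them and are counted among the unique or repeated members of no class.

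Members were narrow and had nearly the same summit in both genotypes. The median width was 50 bp (quartiles 44 and 59, range 41 to 38410), 2064 of 2278 (90.6%) were at most 100 bp wide, and 12 were wider than 1000 bp. The median overlap with the knockout peak was 47 bp. The summits of both lists were a median of 3 bp apart, and at most 10 bp apart for 1994 members (87.5%). Nearest to the threshold of 1 bp, the smallest overlap of a member was 11 bp, at chr15:91909768-91909808 in an exon of a processed transcript of Muc19, with a fold of 5.49 in wild-type and 4.79 in knockout. The closest wild-type peak outside it, chr2:155023912-155024031, lay 2 bp from a knockout peak, with folds of 5.49 and 4.79.

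Fold enrichment was higher in the knockout for most members. The median fold was 8.91 in the wild-type (quartiles 7.54 and 13.0, range 4.11 to 56.9) and 11.6 in the knockout (quartiles 8.89 and 16.4, range 4.79 to 54.0). The log2 of the knockout over the wild-type fold had a median of 0.24 (quartiles -0.00 and 0.47, range -1.07 to 2.36), and the knockout fold was above the wild-type fold in 1569 members (68.9%). The latter share was not taken over all overlapping peaks, so it is not shown to be particular to the members. The median log2 ratio was 0.19 with dense bins kept and 0.23 with X and Y included. The knockout fold was at least 1.5 times the wild-type fold in 314 members (13.8%), against 11.8% of all overlapping peaks on chromosomes 1 to 19, X and Y. The wild-type fold was at least 1.5 times the knockout fold in 31 members (1.36%), against 2.5% of all overlapping peaks. The knockout depth, from the expected pileup and the narrowest peak, was 1.06 times that of the wild-type. Its part in these differences was not tested. With 1 sample per genotype there is no replicate check of any of them.

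The strongest members were at a ceiling. The largest pileup was 82 fragments in wild-type and 78 in knockout, in each list exactly 2 times the narrowest peak of 41 bp and 39 bp. There were 10 members at the largest pileup of both lists. Among them were Gm10801 (chr2:98662227-98662998), Gm10800 (chr2:98666239-98667334), an intron of Chl1, a neural adhesion molecule (chr6:103649054-103649292), an intron of Dpp9, a dipeptidyl peptidase (chr17:56199995-56200101) and a stretch of 38410 bp at Gm10719 (chr9:3000004-3038413), all with a fold of 56.9 in wild-type and 54.0 in knockout. Ratios between the genotypes of such members are set by the ceilings.

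Sharing was closely tied to fold, in classes of fold chosen after the values were seen. In the wild-type list, 449 of 869 peaks with a fold under 7.5 were shared (51.7%), 855 of 992 from 7.5 to 10 (86.2%), 505 of 510 from 10 to 15 (99.0%) and 469 of 469 from 15 (100%, interval from 99.2). In the knockout list the shares were 17.04%, 34.2%, 78.7% and 99.4%. Unshared peaks had a median fold of 6.86 in the wild-type (maximum 11.7) and 7.52 in the knockout (maximum 15.7). A comparison of members with unshared peaks is therefore also one of strong with weak peaks, and it is repeated within fold classes below.

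Sequence context separated the strongest members from the rest. A tandem run is a unit of at most 6 bp repeated over at least 20 bp within 50 bp of the summit, and words were sought within 100 bp. Each member was put in the first class that it met, in the order telomeric run, GGAAT run, satellite word, mitochondrial 31-mers, run of A or T, other tandem run, 7SL or Alu word, B1 word, and octamer followed by CAAA. Runs of the telomeric hexamer stood at 155 members (6.80%, interval 5.80 to 7.92), against 0.00215% of all windows of that length on chromosomes 1 to 19 outside dense bins. Runs of GGAAT stood at 41 members (1.80%), against 0.000225% of all windows. Runs of A or T stood at 164 members (7.20%, against 0.237%). The major satellite word AATATGGCG was the class of 19 members (0.834%), and 31-mers of the mitochondrial genome that of 20 (0.878%). Members with another tandem run as their class numbered 161 (7.07%). Such a run, whatever the class, stood at 190 members (8.34%) against 3.17% of all windows, 11.6% of unshared wild-type and 5.18% of unshared knockout peaks. A 7SL or Alu word was the class of 488 members (21.4%), the B1 word that of 150 (6.58%), and the octamer followed by CAAA that of 25 (1.10%). These 9 classes held 1223 members (53.7%). The remaining 232 members with repeated 31-mers (10.2%) and 823 with unique 31-mers (36.1%) were in none.

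**Figure D1:**
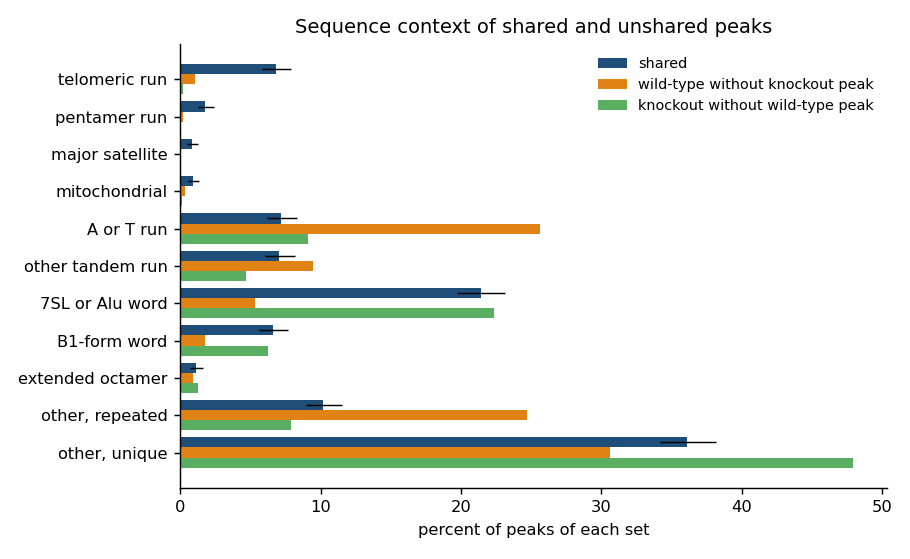
Percent of peaks in each sequence class (x axis) for members and for the unshared peaks of each list; lines are exact 95% binomial intervals of the members. Telomeric runs reach 6.80% in members and stay at 1.07% and 0.196% in the unshared peaks, while runs of A or T reach 25.6% of unshared wild-type peaks.

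Telomeric runs, GGAAT runs and the major satellite word had higher shares in members than in either set of unshared peaks. Telomeric runs were the class of 1.07% of unshared wild-type and 0.196% of unshared knockout peaks, GGAAT runs of 0.178% and 0.0393%, and the satellite word of 0 of 562 and 0 of 2546, for which the exact upper bounds are 0.654% and 0.145%. Runs of A or T had lower shares in members, with 25.6% of unshared wild-type and 9.11% of unshared knockout peaks, though against the latter the members' share was the higher in each class of knockout fold below 10, with intervals that overlap (given with the fold classes). The 7SL or Alu class held 5.34% of unshared wild-type and 22.4% of unshared knockout peaks, so members were near the unshared knockout peaks and above the unshared wild-type peaks. Among the 100 strongest members, ranked by the smaller of both folds, 37 had telomeric runs, 27 had GGAAT runs, 12 the satellite word and 9 another tandem run. The 7SL or Alu class had 6 of these 100, and 5 members with repeated and 4 with unique 31-mers were in none of the classes.

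**Figure D2:**
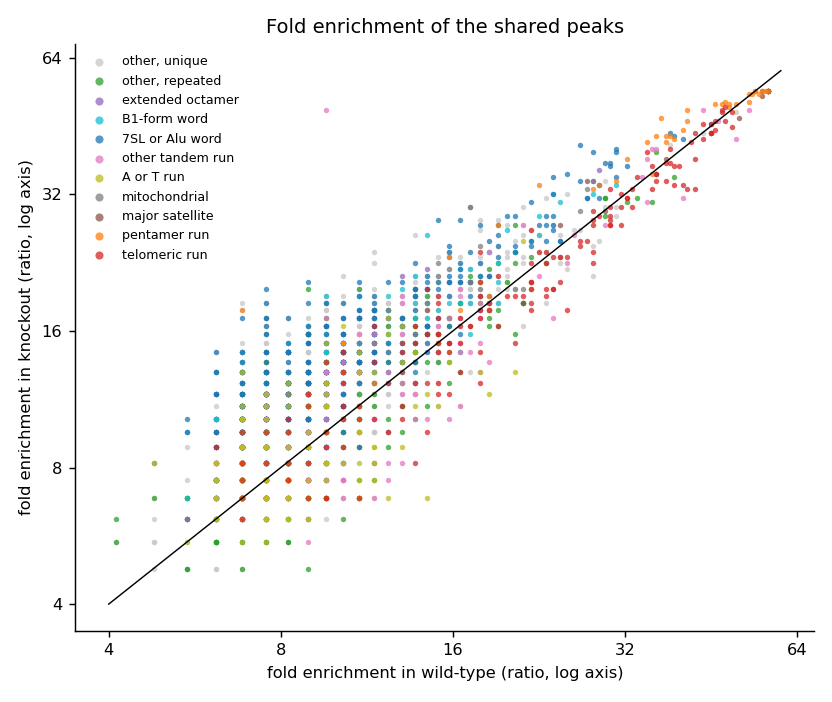
Fold enrichment of each of 2278 members in the wild-type (x axis) and the knockout (y axis), both as a ratio on a log axis, colored by sequence class; the line marks equal fold, and points with the same pair of values cover each other. Telomeric and pentamer runs lie at the upper end near the line, and members with a 7SL or Alu word lie mostly above it.

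The ratio between genotypes differed with the class. For telomeric runs the median fold was 19.9 in wild-type and 19.2 in knockout, with a median log2 ratio of -0.05 (quartiles -0.15 and 0.06). Runs of A or T had 8.23 and 8.21, with a median log2 ratio of -0.00. Members with the satellite word had 37.7 and 38.3, with a median log2 ratio of -0.04, and GGAAT runs 37.7 and 43.1, with 0.14, though many of these lie near the ceiling. Members with a 7SL or Alu word had 8.91 and 13.0, with a median log2 ratio of 0.39 (quartiles 0.21 and 0.58). In this class 440 of 488 members had the higher fold in the knockout, and 117 (24.0%, interval 20.3 to 28.0) had a knockout fold at least 1.5 times that of the wild-type. The B1 class had 8.91 and 12.3 (median log2 ratio 0.35), the octamer followed by CAAA 7.54 and 10.3 (0.32), and the mitochondrial class 16.5 and 20.9 (0.36). The unique members of no class had 8.91 and 10.9, with a median log2 ratio of 0.27. The repeated ones had 8.91 and 10.3, with 0.07. These ratios come from the contrast that chose the members and from 1 sample per genotype, so they describe the libraries.

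**Figure D3:**
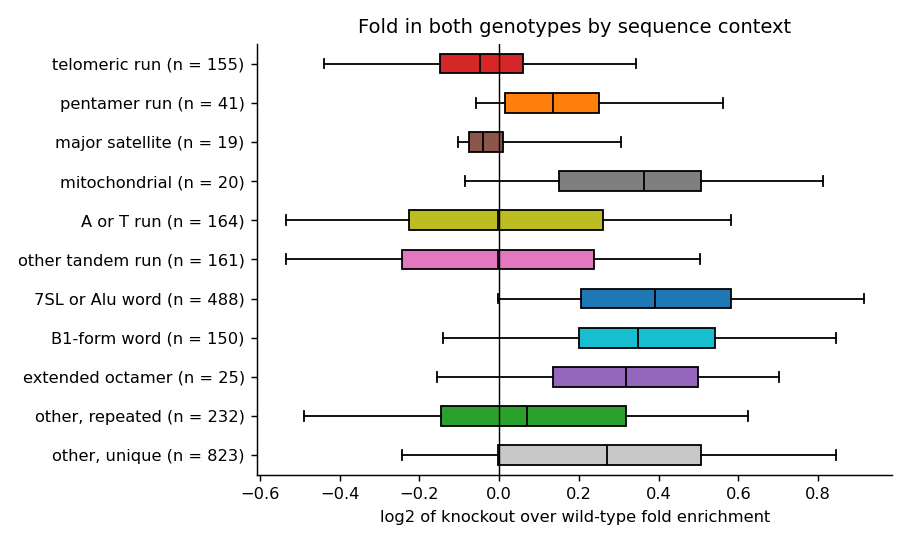
Log2 of the knockout over the wild-type fold (x axis) for members of each sequence class; boxes give quartiles and the median, whiskers the central 90% of members. The 7SL or Alu class has the highest median, 0.39, and the telomeric class the lowest, -0.05.

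Words of 7SL RNA and Alu elements were far more frequent at the summits than 1 kb away. Within 100 bp of the summit on either strand, 494 members (21.7%, interval 20.01 to 23.44) held at least 1 of the 4 words. CCTGTAATC, the form in Alu, was in 236 members (10.4%, interval 9.14 to 11.7), against 0.351% of windows 1000 bp to each side and 0.278% of all windows of 201 bp. CCTGTAGTC, the form in 7SL RNA, was in 1.71% of members (0.110% of flanks, 0.133% of all windows), GTAGCTGGG in 5.75% (0.198%, 0.179%) and TCAGCCTCC in 10.4% (0.571%, 0.454%). Of the mouse 7SL genes, Rn7s1, Rn7s2 and Rn7s6 hold CCTGTAGTC and GTAGCTGGG, and none of the 3 holds CCTGTAATC. CCTTTAATC, the form in B1, was in 172 members (7.55%), against 1.997% of flanks and 1.36% of all windows. The telomeric word TTAGGGTTA was in 6.85% of members (0.154% of flanks, 0.144% of all windows), GGAATGGAA in 2.59% (0.285%, 0.339%) and AATATGGCG in 0.834% (0.0439%, 0.0195%). The run AAAAAAAAA was in 16.7% (6.28%, 5.95%) and CACACACAC in 3.51% (4.57%, 4.32%). Which genome the reads came from was not tested, and no human sequence was used here.

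**Figure D4:**
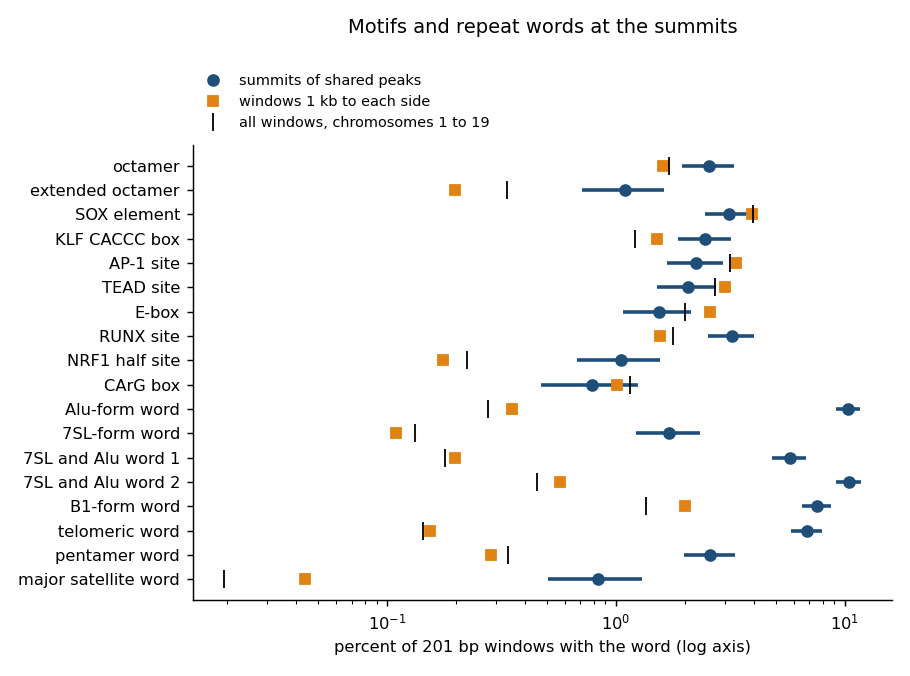
Percent of windows of 201 bp that hold each motif or word (x axis, log scale), for summits of members with exact 95% binomial intervals, for windows 1 kb to each side, and for all windows of chromosomes 1 to 19 outside dense bins. The Alu-form word is at 10.4% of summits and 0.351% of flanks, and the octamer at 2.55% and 1.60%.

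The octamer was at few members. ATGCAAAT stood within 100 bp of 58 summits (2.55%, interval 1.94 to 3.28), against 1.60% of flanks, 1.71% of all windows, 3.02% of unshared wild-type and 2.91% of unshared knockout peaks. In 25 of the 58 (43.1%, interval 30.2 to 56.8) it was followed by CAAA; the octamer with these letters behind it is known from L1 elements. This compares with 9 of 73 flank windows with the octamer (12.3%) and 19.6% of all windows with it. Of unshared peaks with the octamer, 5 of 17 in the wild-type (29.4%) and 33 of 74 in the knockout (44.6%) had CAAA behind it. The octamer followed by CAAA was at 1.10% of members (interval 0.711 to 1.62), 0.198% of flanks and 0.335% of all windows. The same letters were at 0.890% of unshared wild-type and 1.30% of unshared knockout peaks. Without CAAA behind it, the octamer stood at 33 members, or 1.45% (interval 0.999 to 2.03), against 1.40% of flanks and 1.37% of all windows. Among the 1769 members with unique 31-mers it was in 38 (2.15%, interval 1.52 to 2.94), against 1.61% of their flanks. With 1 mismatch allowed it was in 21.03% of members, 21.29% of flanks and 24.5% of all windows.

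Of the 58 members with the octamer, 19 fell in the unique class with no repeat word and 25 in the class with CAAA. The strongest was in an intron of Kcnq1, a potassium channel,, with the imprinted cell cycle inhibitor Cdkn1c as the gene with the nearest transcript start, 91.7 kb away. Next was the member in Ncoa1, a nuclear receptor coactivator, 0.942 kb from a transcript start. The member in an intron of Rora, a nuclear receptor, at chr9:68913943-68913998 had folds of 15.8 and 23.9, and was in the unique class.

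Motifs of other factors were searched as exact letters on both strands, and a match is a description of letters, not of binding. The RUNX site TGTGGTTT was in 3.20% of members, 1.56% of flanks and 1.78% of all windows, and 6 of these 73 members also held the octamer followed by CAAA. Of the 73, 27 were unique members of no class, 23 (31.5%) were repeated members of no class and 8 were in the 7SL or Alu class. The repeated members of no class made up 10.2% of all members. The KLF box CCACACCC was in 2.46% (flanks 1.51%, all windows 1.22%), with 13 of the 56 members in the 7SL or Alu class and 14 in the B1 class. The NRF1 element GCGCATGC was in 24 members, or 1.05% (flanks 0.176%, all windows 0.224%), of which 7 were in each of those classes. Below the flanks were the SOX element CATTGTT at 3.12% (3.93%), the AP-1 site TGACTCA at 2.24% (3.34%), the TEAD site ACATTCC at 2.06% (2.99%), the E-box CACGTG at 1.54% (2.59%) and the CArG box of smooth muscle genes at 0.790% (1.01%). Over all windows these 5 stood at 3.98%, 3.15%, 2.72%, 2.004% and 1.15%. The letters of the YY1 site AAGATGGCG were at 0 members, for which the exact upper bound is 0.162%, against 0.132% of flanks and 0.209% of all windows. The GC box CCCCGCCCC was in 0.483% (flanks 0.329%, all windows 0.356%) and the GATA site AGATAAGA in 0.790% (0.878%, 1.03%). The NF-Y box CCAATCAG was in 0.263% (0.593%, 0.706%) and the MEF2 site CTATTTATA in 0.176% (0.351%, 0.321%). The CRE TGACGTCA (0.0878%), the ETS site CCGGAAGT (0.0878%), the STAT palindrome TTCCGGAA (0.0439%), the CTCF core (0.0878%) and the NFI palindrome (0 members) were rarer, as they were over all windows (0.111%, 0.125%, 0.0649%, 0.0964% and 0.0115%).

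Members within 1 kb of a protein-coding transcript start were about as frequent as such bases are in the genome; with the starts of all genes they were more frequent (8.87% against 6.26% of bases). There were 58 members (2.55%, interval 1.94 to 3.28) within 1 kb of where a protein-coding transcript of GENCODE M21 starts, against 2.56% of all bases, 6.41% of unshared wild-type and 2.55% of unshared knockout peaks. Within 10 kb there were 23.0% (all bases 18.4%) and within 100 kb 71.5% (61.2%). The median distance was 34.2 kb and the largest 2440 kb. Introns of protein-coding genes held 41.0% of members (interval 39.0 to 43.1), against 37.1% of all bases, and 47.5% lay outside all genes (51.6%). Coding exons held 8 members (0.351%, against 1.46% of bases). Exons of non-coding genes held 49 (2.15%, against 1.22%). Summits lay in repeat-masked sequence in 1903 members (83.5%), against 33.5% of bases, 74.6% of unshared wild-type and 80.8% of unshared knockout peaks.

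**Figure D5:**
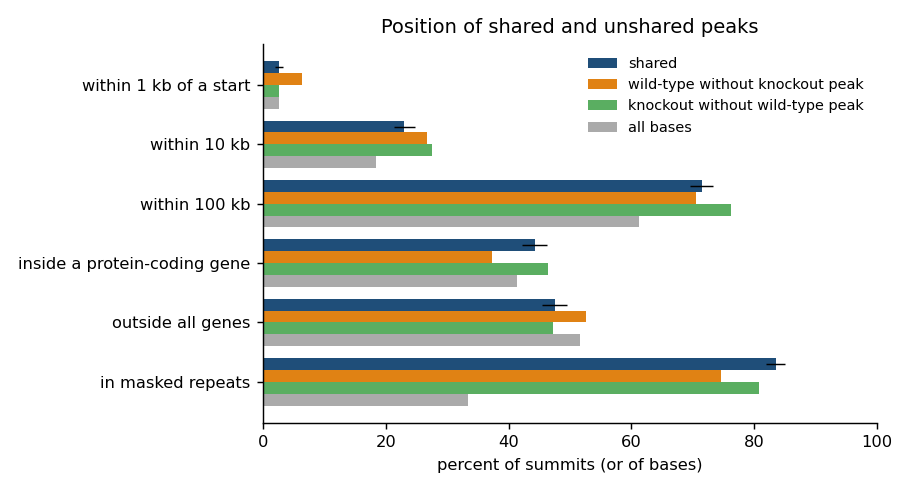
Percent of summits (x axis) by position for members, both sets of unshared peaks and all bases of chromosomes 1 to 19 outside dense bins; lines are exact 95% binomial intervals of the members. Members are at 2.55% within 1 kb of a start, as against 6.41% of unshared wild-type peaks, and at 83.5% in masked repeats as against 33.5% of bases.

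Position differed with sequence class. Members with a 7SL or Alu word lay inside a protein-coding gene in 59.8% (interval 55.3 to 64.2) and within 10 kb of a transcript start in 35.2%. For telomeric runs these shares were 31.6% (interval 24.4 to 39.6) and 10.3%, and for the unique members of no class 41.9% (interval 38.5 to 45.4) and 21.02%. Over all members 44.2% lay inside a protein-coding gene, against 41.3% of bases.

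The strongest members near transcript starts were in repeat classes or in non-coding RNA genes. After Gm10801, Gm10800 and Gm10719 came the 7SL gene Rn7s1, 0.147 kb from a start of Rps29, a ribosomal protein gene. The satellite word stood in members at Litaf (37.7 in wild-type and 38.3 in knockout), Oasl1 (36.3 and 35.6) and Ank1, which encodes ankyrin (29.5 and 29.4). A telomeric run stood at Phf21a (28.1 and 22.6). In introns, besides those above, GGAAT runs stood in Myo7a, an unconventional myosin (52.8 and 51.3), and Ano2, a chloride channel (50.1 and 50.6), and a telomeric run in Greb1 (48.0 and 49.9).

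Exons of RNA genes and pseudogenes held members with high fold in both genotypes. The gene type misc_RNA, which includes 7SL genes, had 14 members and unprocessed pseudogenes 11. Rn7s6 (chr6:69516337-69516406) had a fold of 30.9 in wild-type and 39.7 in knockout. Rn7s2 (chr12:69361180-69361245) had 29.5 and 31.5. The mitochondrial pseudogene Gm28437 (chr1:24611549-24616165) had 27.4 and 32.8. A ribosomal RNA gene, CT010467.1, held a pair of members, with 20.6 and 23.9 at chr17:39845800-39847386 and 20.6 and 25.3 at chr17:39847441-39848819. Other members in such exons had the lower fold in the knockout, among them a pair in the pseudogene Gm13341, with 21.3 and 19.8 at chr2:22587742-22587894 and 20.6 and 19.8 at chr2:22587575-22587662, and 1 in the lincRNA Gm13881 (chr2:103917547-103917596, 9.60 and 8.21).

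Members clustered in places, although dense bins had been left out. Within 10 kb of another member lay 274 (12.03%), and the median distance to the nearest member was 301 kb. There were 18 groups of at least 4 members in steps of at most 10 kb. The largest had 18 members at chr2:181917291-181932493, near Gm14496 and Polr3k. The next had 11 at chr2:22587305-22590191, nearest to Myo3a, all with mitochondrial 31-mers, and 10 at chr10:3109429-3117148, nearest to H60c, all with repeated 31-mers. The genes with the most members were Myo3a with 13, Gm14496, Tcte2 and Vmn1r238 with 12 each, and H60c with 11. Per Mb there were 0.958 members over chromosomes 1 to 19, from 0.676 on chromosome 15 to 1.28 on chromosome 11.

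By distance to a transcript start, 1856 of 20693 protein-coding genes (8.97%) were the nearest gene of a member, and 1594 of these had 1 member. Genes with large surroundings are nearest to more peaks by length alone, so lists are also given per Mb of the territory in which their genes are nearest. Of 27 pluripotency genes 7 were nearest to a member (25.9%), with 1.24 members per Mb. Growth factor pathway genes had 14 of 53 (1.34 per Mb), osteochondrogenic genes 5 of 19 (1.23), SMC contractile genes 4 of 29 (1.16) and the POU, SOX and KLF families 12 of 49 (0.819). Guidance and migration genes had 11 of 41 (0.667), matrix genes 3 of 40 (0.516), lipoprotein genes 2 of 29 (0.494) and inflammation genes 2 of 31 (0.487). With so few members per list, these counts are description and single out no list.

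The strongest members within 100 kb of a start of a list gene, at most 3 per list, are described by their distance and class. Nearest to Sox2, the partner of Oct4 in pluripotent cells, the member at chr3:34721676-34721730 held a 7SL or Alu word, 71.3 kb from a transcript start, with 12.3 in wild-type and 15.0 in knockout. In an intron of Jarid2, a Polycomb cofactor, there were members at chr13:44869579-44869669 (9.60 and 14.4) and chr13:44869927-44869997 (8.23 and 8.89). The member 26.7 kb from a start of Klf17 (chr4:117792306-117792365, 11.7 and 17.8) held the B1 word and that 51.2 kb from a start of Klf3 (chr5:64752143-64752184, 7.54 and 8.89) a 7SL or Alu word. Among smooth muscle genes, Mylk, the myosin light chain kinase, had a telomeric run 41.9 kb from its start (chr16:34743002-34743055, 17.8 and 19.2). Itga8, an integrin subunit, had a 7SL or Alu word 73.1 kb away (chr2:12059446-12059492, 10.3 and 15.7). The member in an intron of Actn1, alpha-actinin, was in the unique class (chr12:80195880-80195927, 9.60 and 14.4).

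Among osteochondrogenic genes, a 7SL or Alu word stood in an intron of Acsf2, 4.40 kb from a start of Chad, a cartilage matrix protein gene (chr11:94569427-94569472, 10.3 and 13.7), and in an intron of Trpv4, a calcium channel (chr5:114636751-114636801, 7.54 and 16.4). The member near Mgp, an inhibitor of calcification, was in the unique class (chr6:136895940-136895987, 9.60 and 15.0, 20.1 kb). In the growth factor list, the member in Fgfr2 at chr7:130362862-130362919 had repeated 31-mers (20.6 and 22.6), and that in Lrp5, a Wnt coreceptor, a 7SL or Alu word (chr19:3682048-3682105, 13.7 and 19.2). Of the axon guidance genes, Sema3d held a 7SL or Alu word in an intron (chr5:12453588-12453637, 11.7 and 18.5), and another stood outside genes 37.9 kb from a start of Unc5a (chr13:54911482-54911522, 6.86 and 8.21). Adamts1, a matrix protease, had the B1 word 67.6 kb away (chr16:85733836-85733876, 5.49 and 6.84).

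Of the genes of lipids and inflammation, Cyp27a1, the sterol 27-hydroxylase, had the highest fold, 22.6 in wild-type and 28.7 in knockout, in an intron with the B1 word (chr1:74719955-74720013). The member 51.4 kb from a start of Apob, the apolipoprotein of low-density lipoprotein, had a telomeric run and the lower fold in the knockout (chr12:7926210-7926258, 8.91 and 6.84). Lower in the knockout as well were Tlr4, a receptor for lipopolysaccharide, with a run of A or T in an intron (chr4:66850830-66850880, 14.4 and 11.6), and a member of the unique class in an intron of Manba, 54.0 kb from a start of Nfkb1, a subunit of NF-kappaB (chr3:135554282-135554328, 10.97 and 8.89). All other members named from the lists had the higher fold in the knockout.

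Within classes of wild-type fold, several differences from unshared wild-type peaks were still there. At a given fold in a list the sets differ by whether the other list has a peak. That is the rule that chose the members, so these shares are description and no independent check. In classes of knockout fold below 10, given further on, shares of 7SL or Alu words and runs of A or T differed in the opposite direction. Below a wild-type fold of 7, 98 of 449 members (21.8%, interval 18.1 to 25.9) held a 7SL or Alu word, whatever their class. The same held for 19 of 420 unshared wild-type peaks (4.52%, interval 2.75 to 6.97). From 7 to 8.5 the shares with such a word were 23.9% and 10.3%. Runs of A or T stood at 9.35% of members and 22.6% of unshared wild-type peaks below 7, and at 8.84% and 34.5% from 7 to 8.5. Unique 31-mers stood at 79.3% and 55.5% below 7, but from 7 to 8.5 the shares were close, with 79.3% of members and 87 of 116 unshared wild-type peaks (interval 66.1% to 82.6%). From 8.5 to 10 they stood at 79.8% of members (interval 75.3 to 83.9) and 11 of 21 unshared wild-type peaks (52.4%, interval 29.8 to 74.3). Below 7, within 1 kb of a transcript start were 8 members (1.78%, interval 0.772 to 3.48) and 28 unshared wild-type peaks (6.67%, interval 4.48 to 9.49). From 7 to 8.5 these shares were 2.41% (interval 1.25 to 4.17) and 6.03% (interval 2.46 to 12.04), with intervals that overlap. Telomeric runs did not separate the sets below 7, at 1.34% (interval 0.492 to 2.89) and 0.952% (interval 0.260 to 2.42).

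Unshared knockout peaks were compared with members in classes of knockout fold below 10, because from 10 upward members reach 54.0 and unshared knockout peaks end at 15.7. Below 7, 7.26% of members (interval 4.36 to 11.2) and 18.9% of unshared knockout peaks (interval 16.7 to 21.2) held a 7SL or Alu word, whatever their class. From 7 to 8.5 the shares with such a word were 16.6% and 24.1%, and from 8.5 to 10 they were 22.1% and 27.2%, both times with intervals that overlap. Runs of A or T stood at 16.5% of members (interval 12.1 to 21.8) and 10.6% of unshared knockout peaks (interval 8.89 to 12.4) below 7. From 7 to 8.5 they stood at 14.5% and 9.52%, and from 8.5 to 10 at 9.61% and 5.85%, each time with intervals that overlap. Telomeric runs stood at 2.42% of members below 7 (interval 0.893 to 5.19) and at 0.327% of unshared knockout peaks (interval 0.0893 to 0.836). From 7 to 8.5 these shares were 2.36% (interval 0.956 to 4.81) and 0.129% (interval 0.00326 to 0.715). From 8.5 to 10 they were 3.20% of members (interval 1.47 to 5.99) and 0 of 342 unshared knockout peaks, for which the exact upper bound is 1.07%. Unique 31-mers had lower shares in members than in unshared knockout peaks in each class below 10, with intervals that do not overlap. Below 7 the shares were 62.5% (interval 56.2 to 68.5) and 79.1% (interval 76.7 to 81.3). They were 77.7% and 86.5% from 7 to 8.5, and 78.3% and 87.1% from 8.5 to 10. The octamer was at 2.42% of members below 7 and 2.70% of unshared knockout peaks, and at 3.38% and 3.73% from 7 to 8.5, with intervals that overlap. From 8.5 to 10 members had the higher share, 3.20% (interval 1.47 to 5.99) against 1.75% (interval 0.646 to 3.78), again with intervals that overlap. Over all folds, median GC content within 100 bp was 44.3% for members, 43.3% for their flanks, 41.3% for unshared wild-type and 42.8% for unshared knockout peaks.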

How the data were processed

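ChIP-seq with an Oct4 antibody was done by the authors on aortic segments, with 1 sample per genotype from 15 mice each. Reads were mapped by the authors to GRCm38.p6 (Bowtie), cleared of duplicates (SAMtools) and passed to MACS2, which kept peaks with a q value below 0.05. The control of each call is not given in the sources used here. The expected pileup was the same at all peaks of a list, so the folds hold no local background. The deposited lists give a score (10 times the −log10 q), the fold enrichment as a ratio, the −log10 p and −log10 q, and the summit offset in bp. The deposited score was not used further. The depth was read from the expected pileup recovered from the steps between fold values.

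Peaks were used as deposited. Where several knockout peaks overlapped a member, the highest fold was taken. Sequence was read from GRCm38 and genes from GENCODE M21, with nearest genes by protein-coding transcript start. Words were sought as exact letters on both strands, within 100 bp of the summit, and tandem runs within 50 bp, and their shares were set beside all windows of the same length. The copy number is the median over 31-mers. Shares have exact 95% binomial intervals, which cover counting error within these samples only. Peaks are not replicates, and no test between genotypes was possible.

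Members were named by the smaller of both folds: the 10 highest of all, within 1 kb of a start, in introns and with the octamer, up to 3 per gene list, the 5 genes with the most members, and the peaks nearest to the overlap threshold. The text shows a selection of these, and 1 named member on chromosome 18 is not listed. Some members and summit sequences are not reported here. The strongest members of each sequence class and in non-coding exons, the classes, the words, the fold classes and the 1.5-fold limit were chosen after the values were seen. Members and gene lists were chosen with earlier results of these data known. The methods were tested on simulated data. Python 3.11.15, numpy 2.4.6, pandas 2.3.3, scipy 1.17.1, numba 0.67.0 and matplotlib 3.10.9 were used. Alternatives changed the overlap, the fold and q limits, the chromosomes, the dense bins, the transcript starts and the octamer window. The Klf4 ChIP-seq and the RNA-seq were not analysed here.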

Additional observations from a re-analysis of the deposited data

How the results depend on the processing

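Of 105 values under alternatives, 76 stayed close to the reported value (a share or median within its 95% interval, a number of peaks or genes within 1.5 times), 29 moved by more and 0 changed sign; this count leaves out the octamer's comparison with its flanks, which did change direction. The share of wild-type peaks that were shared was 77.5% when the overlap had to cover at least 50%, 76.5% with summits at most 25 bp apart, 92.8% at a fold of at least 10, 71.0% with dense bins kept and 78.2% with X and Y. At a fold of at least 10 there were 909 members, 778 nearest genes, 42.1% inside a gene and a median log2 ratio of 0.18. With dense bins kept the log2 ratio was 0.19 and unique 31-mers 68.9%. With the starts of all genes, 8.87% lay within 1 kb, as did 6.26% of bases. The octamer was in 21.03% with 1 mismatch (flanks 21.29%), 1.58% within 50 bp (flanks 0.746%) and 4.61% within 250 bp (flanks 4.74%), so that its direction against the flanks changed with the mismatch and the wider window. GC content was 46.5% within 50 bp. Restricted to members of no repeat class with unique 31-mers, an alternative chosen after seeing the data, there were 823 members and 718 nearest genes, with a log2 ratio of 0.27, 1.58% within 1 kb, 41.9% inside a gene and a GC content of 42.3%. The causes were not tested. No paired analysis was possible because each genotype had a single ChIP sample. A peak needed a pileup of at least 5 fragments, so weaker sites in either genotype could not be seen, and an unshared peak is not shown to be absent from the other sample.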
